A study of Mus musculus with 4 samples.

Results

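Axon guidance ligands and receptors were examined in RNA-seq of quiescent primary mouse embryonic fibroblasts (MEFs) from E13.5 embryos, with and without deletion of *Phf2*. Genes were taken by symbol: semaphorins of classes 3 to 7, plexins, neuropilins, ephrins and Eph receptors, Slits 1 to 3, Robos 1 to 4, netrins 1 to 5 and Unc5 genes. Of 24391 symbols in the count table, 71 matched. The names of 68 of them stand for a guidance ligand or receptor. The other 3 matched the symbol patterns without being counted as a guidance ligand or receptor, namely *Unc50*, which is no netrin receptor, *Unc5cl*, and *Plxna4os1*, an antisense transcript. After the filter on low counts, 61 of the 71 were tested among 13668 genes, that is 60 guidance genes and *Unc50*.

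Each group had 2 libraries. By the sample labels, all 4 carried floxed *Phf2* on both alleles and 1 ER-Cre allele, a Cre recombinase that 4-hydroxytamoxifen (4-OHT) activates and that is expressed from *Rosa26*. The libraries labelled Tamoxifen form the *Phf2* KO group and those without form the wild-type (WT) group. The treatment protocol names 0.5 µM 4-OHT for 7 days in medium with 2% charcoal-treated serum, in the same words for every library, and does not name the vehicle or medium of WT cells. No library had 4-OHT without floxed *Phf2*, so loss of *Phf2*, Cre activity and 4-OHT cannot be told apart. The labels number the replicates 1 and 2 and do not say which embryos or cultures they came from. In bulk RNA, fewer cells of a type and less RNA per cell cannot be told apart.

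The libraries held between 21094743 and 26094268 counts on genes, with a count on 16903 to 17325 genes. Levels are given as TMM-normalized CPM (the counts of a gene relative to all counts of its library), and group means with the SD of 2 libraries. Values follow the order replicate 1, replicate 2. *Phf2*, which encodes a histone demethylase family protein with a PHD finger, was at 135 and 142 CPM in WT and 70.1 and 89.7 CPM in *Phf2* KO (57.9% of WT; log2 fold change -0.79 ± 0.14 SE), so a part of its reads remained. Its adjusted p was 0.999 by edgeR's quasi-likelihood test and 0.00384 by DESeq2. Counts are per gene and exons were not counted apart, so these values do not give the level of intact *Phf2* RNA or of the protein. Fibroblast markers were high in every library, with a sum over 13 genes of 68884 and 73740 CPM in WT and 62658 and 60770 CPM in *Phf2* KO. By the quasi-likelihood test 2 of the 13, *Lum* and *Postn*, were lower in *Phf2* KO at unadjusted p of 0.0202 and 0.0306 (15.4%, against 2.67% of all genes tested). Both *Phf2* KO values were below both WT values in 5 of the 13 (against 18.0% of all genes tested) and above in 0 (against 15.5%). In both groups *Xist* was high in replicate 1 and genes of the Y chromosome in replicate 2, so the replicates of a group did not come from the same embryo, and the spread behind each p-value includes the difference between sexes. Macrophage markers were also higher in replicate 1: the sum over 15 genes was 4223 CPM against 917 CPM in WT, and 4792 CPM against 1438 CPM in *Phf2* KO.

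Guidance cues steer growing axons and migrating cells by attraction and repulsion. Secreted class 3 semaphorins bind neuropilins, which signal through plexins, whereas semaphorins of the other classes mostly bind plexins directly. Ephrins stay on the cell surface and bind Eph receptor tyrosine kinases on neighbouring cells, Slits are secreted ligands of Robos, and netrins attract some axons and repel others, the latter through Unc5 receptors. Mesenchymal cells use the same molecules for spacing, migration and vessel patterning, and fibroblasts express many of them outside the nervous system.

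Of the guidance genes, *Sema3d* and *Sema3a* on chromosome 5 had the smallest p-values in the genotype comparison. *Sema3d* (mm9 chr5:12383166-12588943, plus strand), *Sema3a* (chr5:13125593-13602565, plus strand), *Sema3e* (chr5:14025276-14256689, plus strand) and *Sema3c* (chr5:17080099-17236086, plus strand) lie in this order along 1 stretch of the chromosome. All but *Sema3e* had both *Phf2* KO libraries below both WT libraries, as did 18.0% of all genes tested. This stretch was picked after the values were seen. Their promoters are shown so that the 3 genes can be set beside the neighbour whose level did not separate the genotypes. Each is a window around the start of a RefSeq transcript (GRCm38.p6, plus strand), and CpG dinucleotides are in capitals. The windows are *Sema3d* chr5:12382916-12383215, *Sema3a* chr5:13396534-13396833, *Sema3e* chr5:14025026-14025325 and *Sema3c* chr5:17574566-17574865.
Sema3d: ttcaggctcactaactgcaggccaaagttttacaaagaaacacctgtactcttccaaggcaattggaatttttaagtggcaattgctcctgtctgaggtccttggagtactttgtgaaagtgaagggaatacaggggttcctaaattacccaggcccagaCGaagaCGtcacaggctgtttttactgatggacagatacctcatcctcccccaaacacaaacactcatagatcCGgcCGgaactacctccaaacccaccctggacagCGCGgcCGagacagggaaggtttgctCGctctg
Sema3a: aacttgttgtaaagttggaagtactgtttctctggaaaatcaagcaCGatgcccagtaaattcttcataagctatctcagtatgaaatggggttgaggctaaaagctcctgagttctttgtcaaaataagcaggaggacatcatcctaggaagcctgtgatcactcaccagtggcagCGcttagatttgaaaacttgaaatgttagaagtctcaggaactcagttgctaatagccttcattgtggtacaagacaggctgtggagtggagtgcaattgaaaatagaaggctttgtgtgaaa
Sema3e: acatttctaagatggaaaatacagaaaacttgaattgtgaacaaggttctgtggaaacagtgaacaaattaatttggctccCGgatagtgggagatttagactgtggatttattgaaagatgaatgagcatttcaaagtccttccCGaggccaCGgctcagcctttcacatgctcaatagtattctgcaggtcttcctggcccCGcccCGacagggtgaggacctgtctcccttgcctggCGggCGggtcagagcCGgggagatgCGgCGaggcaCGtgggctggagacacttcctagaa
Sema3c: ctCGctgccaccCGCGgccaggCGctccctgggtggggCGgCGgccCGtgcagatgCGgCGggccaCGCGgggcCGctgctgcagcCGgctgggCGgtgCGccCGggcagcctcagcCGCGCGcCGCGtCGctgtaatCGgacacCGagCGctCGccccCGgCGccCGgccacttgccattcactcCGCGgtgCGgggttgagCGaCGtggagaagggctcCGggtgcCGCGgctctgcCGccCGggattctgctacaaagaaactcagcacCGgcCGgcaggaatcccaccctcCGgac

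The 4 promoters did not share a base composition. That of *Sema3c* held 42 CpG and was 75.7% G and C, whereas that of *Sema3a* held 2 CpG at 41.3%, *Sema3d* held 8 at 49.7% and *Sema3e* held 11 at 50.7%. The windows may not all lie at the same kind of start. They are in GRCm38.p6 and the gene spans in mm9, and coordinates were not converted between the builds. Compared as printed, the windows of *Sema3d* and *Sema3e* hold the mm9 start of the gene. That of *Sema3a* lies inside the mm9 span of its gene, away from the start, so its composition may be that of an internal transcript start. The *Sema3c* window lies outside the mm9 span of its gene, so its kind of start cannot be read this way. Letters GGGCGG, the core of the GC box that Sp1 binds, were found on either strand in the *Sema3e* and *Sema3c* windows and not in the others. Among the 71 genes, 61 matched the promoter table, with 77 promoters. GGGCGG was found in 71.4% of these 77, in 35.7% of all 32851 promoters of the table and in 61.8% of the promoters of all genes tested here. TATAAA was in 2.60%, 13.6% and 7.22% of the 3 sets, CCAAT in 28.6%, 37.4% and 37.0%, CACGTG in 6.49%, 7.15% and 9.78%, and AGGTCA in 14.3%, 16.3% and 12.1%. The motifs were searched on both strands and do not contain one another. Median G and C content was 64.3% in the 77 promoters, 52.7% over the table and 60.7% over promoters of genes tested. The 77 include those of *Unc50*, *Unc5cl* and genes that were not tested, and hold none of *Ntn1* or *Sema3f*. The promoters of genes tested cover 10322 of the 13668 genes. No data on binding or chromatin at these promoters were analysed here.

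With genotype as the only term, no guidance gene passed an adjusted p of 0.1. The count was 0 of 61 by edgeR's quasi-likelihood test, by its likelihood ratio test, by DESeq2 and by limma-voom. Over all genes tested, these called 0.00732% (1 gene), 0.3%, 0.483% and 0.0%, respectively. The adjusted p of every guidance gene tested was 0.999 by the quasi-likelihood test, and the lowest was 0.162 by DESeq2, for *Sema3d*. The call depended on the design. With the replicate number as a further term in the quasi-likelihood fit, 11 were called lower (18.0%, against 5.2% of all genes tested). Another 7 were called higher (11.5%, against 5.77%). Without that term, as in the p-values and SE given for single genes, differences between the replicate numbers count as spread within a group. At an unadjusted p under 0.05, 5 were lower in *Phf2* KO (8.20%, against 2.67% of all genes tested) and 2 were higher (3.28%, against 1.54%), 7 in all (11.5%, against 4.21%). The 5 were *Sema3d*, *Sema3a*, *Ntn1*, *Sema3c* and *Robo1*, and the 2 were *Plxnb3* and *Sema4c*. These counts depended on single libraries: with *Phf2* KO replicate 1 left out 2 were lower, with *Phf2* KO replicate 2 left out 8 were lower, with WT replicate 2 left out 6 were higher, and with any of the other 3 left out none was higher.

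Considered without a model, 13 of 61 had both *Phf2* KO values below both WT values (21.3%, against 18.0% of all genes tested) and 7 had both above (11.5%, against 15.5%). Together these shares were near the background (32.8% against 33.5%). With a log2 fold change of at least 0.5 as well, 5 were lower (*Sema3d*, *Robo1*, *Epha7*, *Sema5b* and *Unc5d*, against 3.41% of all genes) and 1 higher (*Plxnb3*, against 1.96%). The median log2 fold change was 0.03 over the 61 and 0.01 over all genes, and 26 of the 61 were below 0 (42.6%, against 48.8%). By family the median was -0.17 for class 3 semaphorins, 0.19 for semaphorins of classes 4 to 7, 0.16 for plexins, 0.12 for neuropilins, -0.29 for ephrins A, 0.08 for ephrins B, -0.05 for Eph A receptors, 0.05 for Eph B receptors, -0.17 for Slits, -0.52 for Robos, -0.17 for netrins and -0.58 for Unc5 receptors. Leaving out 1 library moved the median from -0.46 to -0.02 for ephrins A, from -0.81 to -0.28 for Robos and from -1.18 to -0.06 for Unc5 receptors. The Unc5 median came from 3 genes and was -0.15 with a filter of at least 1 CPM in 2 libraries. Summed over these 3 genes, the level was 115 CPM in WT and 137 CPM in *Phf2* KO, most of it from *Unc5b*. Families did not share 1 direction, and most held genes on either side of 0.

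**Figure D1:**
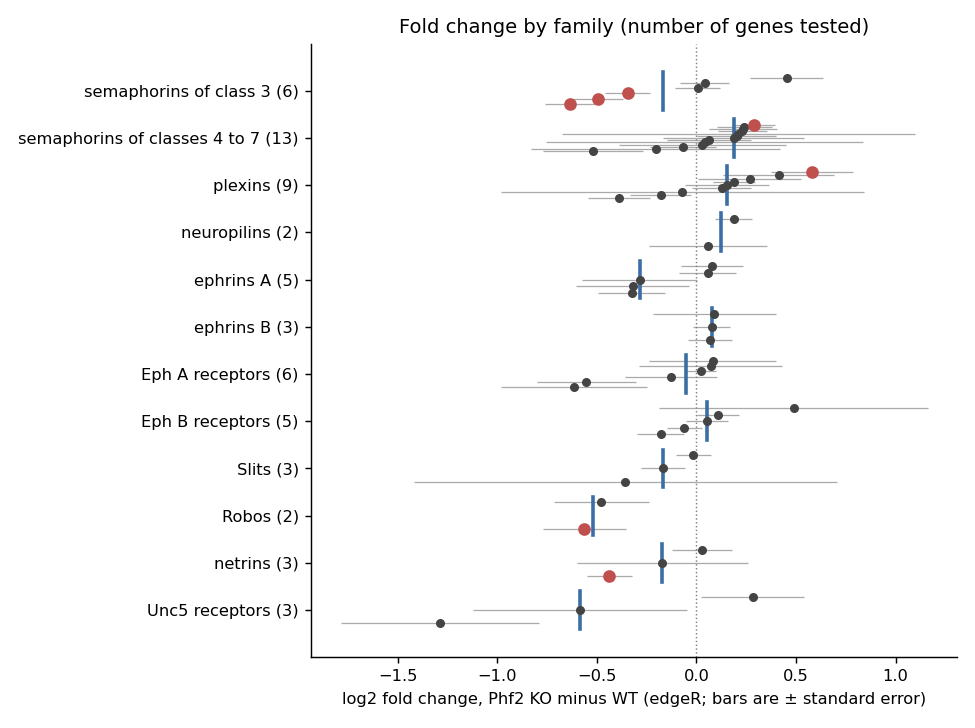
Log2 fold change of each guidance gene tested, *Phf2* KO minus WT, by family, with the number of genes tested in parentheses. Grey bars are ± the standard error, blue lines are family medians and red points had an unadjusted p under 0.05. The 5 red points left of 0 are *Sema3d*, *Sema3a*, *Sema3c*, *Robo1* and *Ntn1*, and the 2 right of 0 are *Plxnb3* and *Sema4c*.

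Class 3 semaphorins, the secreted ligands, split by gene. *Sema3d*, a repellent known from heart and vessel patterning, was at 33.0 and 28.3 CPM in WT and 19.1 and 20.4 CPM in *Phf2* KO. Means were 30.7 ± 3.32 and 19.7 ± 0.898 CPM (n = 2 each), which is 64.4% of WT. Its log2 fold change was -0.63 ± 0.12 SE with an unadjusted p of 0.00483, the smallest of the guidance genes tested. The groups did not overlap, and the log2 fold change stayed between -0.76 and -0.51 when each library was left out in turn.

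*Sema3a*, the prototype repellent that collapses growth cones, was at 40.0 and 46.5 CPM in WT and 29.0 and 32.3 CPM in *Phf2* KO. That was 70.9% of WT, with a log2 fold change of -0.50 ± 0.12 SE (unadjusted p = 0.0128). Both *Phf2* KO libraries were below both WT libraries. *Sema3c*, a ligand needed in outflow tract development, was at 201 and 173 CPM in WT and 141 and 153 CPM in *Phf2* KO (78.7% of WT; log2 fold change -0.34 ± 0.11 SE, unadjusted p = 0.0318). Its groups did not overlap either, although the ratio was larger between libraries numbered 1 (-0.51 log2) than between those numbered 2 (-0.17).

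The other class 3 ligands gave other values. *Sema3e*, the ligand that binds plexin D1 without a neuropilin, was at 12.7 and 12.4 CPM in WT and 12.7 and 13.1 CPM in *Phf2* KO, with a log2 fold change of 0.04 ± 0.12 SE. *Sema3f*, which binds neuropilin 2, was the most abundant per kb of exon and was at 281 and 387 CPM in WT and 430 and 486 CPM in *Phf2* KO. That was 137% of WT without overlap of the groups, and the log2 fold change of 0.45 ± 0.18 SE had an unadjusted p of 0.0609. *Sema3b*, which lies near *Sema3f* on chromosome 9, was at 86.0 and 103 CPM in WT and 93.1 and 97.0 CPM in *Phf2* KO, a log2 fold change of 0.01 ± 0.11 SE. *Sema3g* had 2 to 7 counts a library and was not tested. The sum over the 6 genes tested was 702 CPM in WT and 764 CPM in *Phf2* KO, of which *Sema3f* made up 334 and 458 CPM.

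**Figure D2:**
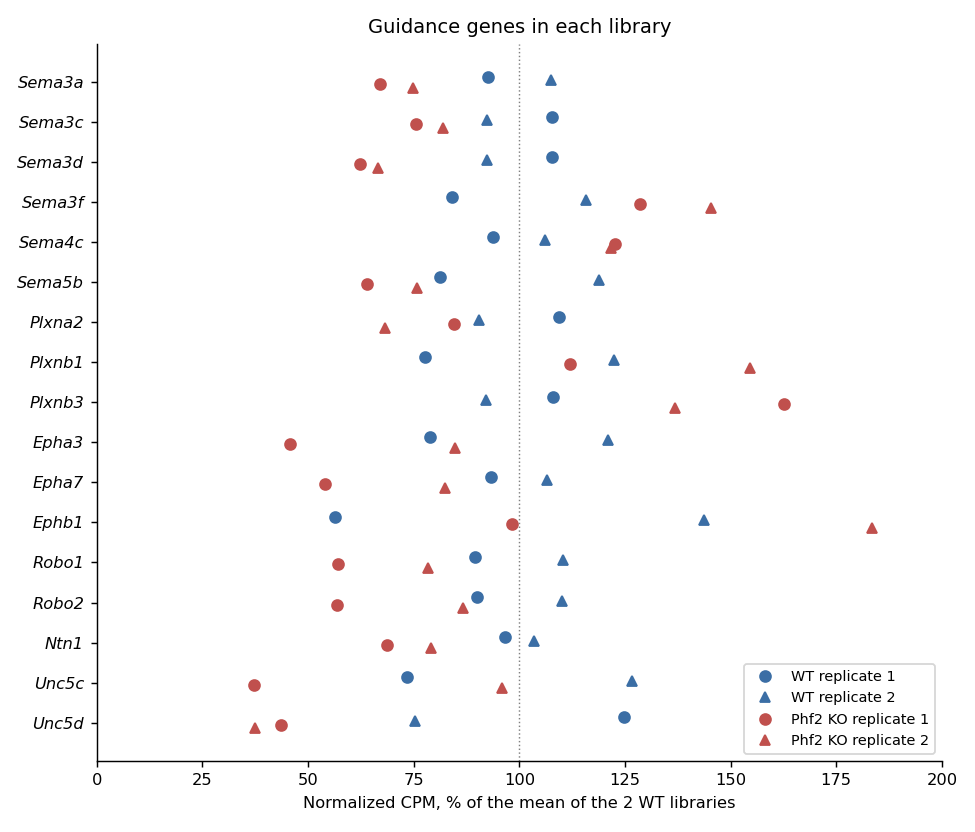
Normalized CPM of 17 guidance genes in each library, as a percentage of the mean of the 2 WT libraries; circles are replicate 1 and triangles replicate 2, blue for WT and red for *Phf2* KO. Genes shown had an unadjusted p under 0.05 or differed by at least 0.3 log2 in the same direction within both replicate numbers. For *Sema3d* all red symbols lie left of all blue ones, whereas for *Epha3* and *Unc5c* the *Phf2* KO replicate 2 lies right of WT replicate 1.

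Among semaphorins of classes 4 to 7, which are membrane-bound, the gene with an unadjusted p under 0.05 was *Sema4c*, a ligand of plexin B2. It was at 31.1 and 35.1 CPM in WT and 40.6 and 40.3 CPM in *Phf2* KO, which is 122% of WT (log2 fold change 0.29 ± 0.11 SE, unadjusted p = 0.0451). *Sema4b* and *Sema4f* had both *Phf2* KO values above both WT values as well, each at 117% of WT, with unadjusted p of 0.120 and 0.236. *Sema5b*, which carries thrombospondin repeats, was the largest difference the other way. It was at 6.68 and 9.78 CPM in WT and 5.26 and 6.24 CPM in *Phf2* KO (69.8% of WT; log2 fold change -0.52 ± 0.25 SE, unadjusted p = 0.100). Its paralog *Sema5a*, a ligand of plexin B3, was at 57.9 and 67.0 CPM in WT and 66.6 and 81.0 CPM in *Phf2* KO, with overlapping groups. Of the 13 genes tested, 10 had a log2 fold change above 0 and 3 below.

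Plexins are the receptors through which semaphorins act on small GTPases. *Plxnb3* had the largest fold change above 0 among them: 4.06 and 3.47 CPM in WT and 6.13 and 5.16 CPM in *Phf2* KO, which is 150% of WT. Its log2 fold change was 0.58 ± 0.21 SE (unadjusted p = 0.0409), from 90 to 127 counts a library, and was near the same within replicate numbers 1 (0.59) and 2 (0.57). *Plxna2*, a receptor for class 3 and class 6 semaphorins, was at 77.7 and 64.3 CPM in WT and 59.9 and 48.4 CPM in *Phf2* KO. That was 76.3% of WT without overlap (log2 fold change -0.39 ± 0.16 SE, unadjusted p = 0.0592). The other class A plexins did not separate: *Plxna1* was at 109%, *Plxna3* at 88.3% and *Plxna4* at 111% of WT, each with overlapping groups.

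*Plxnb2* and *Plxna1* were the most abundant plexins per kb of exon. *Plxnb2*, a receptor for class 4 semaphorins, was at 852 and 953 CPM in WT and 1047 and 1010 CPM in *Phf2* KO (114% of WT; log2 fold change 0.19 ± 0.11 SE, unadjusted p = 0.143). *Plxnb1*, the receptor for *Sema4d*, was at 28.7 and 45.2 CPM in WT and 41.3 and 57.1 CPM in *Phf2* KO. Its groups overlapped because the replicate numbers differed, and the ratio of *Phf2* KO to WT was 0.53 log2 within number 1 and 0.34 within number 2. *Plxnd1*, the receptor for *Sema3e*, was at 88.0 and 61.6 CPM in WT and 107 and 73.1 CPM in *Phf2* KO, with ratios of 0.28 and 0.25 log2 within the numbers. Of the neuropilins, *Nrp1* was at 190 and 171 CPM in WT and 206 and 205 CPM in *Phf2* KO (114% of WT, unadjusted p = 0.107). *Nrp2* was at 170 and 109 CPM in WT and 174 and 116 CPM in *Phf2* KO, so that it differed by replicate number more than by genotype. An exon of *Nrp1* overlaps *Mir1903* on the same strand.

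Ephrins of class A, held at the membrane by a lipid anchor, gave *Phf2* KO means between 79.8% and 106% of WT. *Efna2* was the one whose groups did not overlap, at 9.37 and 9.09 CPM in WT and 6.71 and 8.02 CPM in *Phf2* KO (log2 fold change -0.32 ± 0.17 SE, unadjusted p = 0.116). *Efna4*, the most abundant per kb, was at 15.2 and 19.0 CPM in WT and 17.3 and 18.8 CPM in *Phf2* KO. The transmembrane ephrins of class B lay between 105% and 106% of WT, with overlapping groups in all 3. *Efnb2*, which marks arteries, was at 59.7 and 65.1 CPM in WT and 63.5 and 68.1 CPM in *Phf2* KO, and *Efnb1*, a gene of the X chromosome, was at 43.9 and 47.7 CPM in WT and 45.0 and 51.1 CPM in *Phf2* KO.

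Eph A receptors held the largest differences of the Eph system. *Epha7* had 300 and 369 counts in WT and 149 and 264 in *Phf2* KO (mean CPM 68.1% of WT; log2 fold change -0.55 ± 0.25 SE, unadjusted p = 0.0809), without overlap. *Epha3*, a receptor for ephrins A that is expressed in embryonic mesenchyme, was at 46.7 and 71.7 CPM in WT and 27.0 and 50.3 CPM in *Phf2* KO. The mean was 65.2% of WT, but *Phf2* KO replicate 2 was above WT replicate 1, and the log2 fold change of -0.62 ± 0.37 SE had an unadjusted p of 0.160. Within replicate numbers 1 and 2 the ratio was -0.79 and -0.51 log2. *Epha4*, the most abundant of the class per kb, was at 75.5 and 79.9 CPM in WT and 80.2 and 77.5 CPM in *Phf2* KO, a log2 fold change of 0.02 ± 0.08 SE.

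Eph B receptors differed little. *Ephb3*, *Ephb4* and *Ephb2*, the 3 most abundant, were at 108%, 104% and 95.8% of WT with overlapping groups. *Ephb3* was at 210 and 243 CPM in WT and 242 and 248 CPM in *Phf2* KO. *Ephb6*, whose kinase domain is inactive, was at 16.7 and 18.0 CPM in WT and 15.0 and 15.6 CPM in *Phf2* KO (88.4% of WT, unadjusted p = 0.199). *Ephb1* had 4 to 13 counts a library, and its log2 fold change was 0.49 ± 0.67 SE. Of the Eph A receptors, *Epha8* had no count in any library, which allows up to 0.116 to 0.145 CPM at 3 counts a library, *Epha6* had 3 counts in 1 library and *Epha10* had 1 to 11 a library, and none of the 3 was tested.

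Slits and Robos are ligand and receptor of a repulsive system. *Slit3* had the highest level per kb of exon of all guidance genes, at 221 CPM per kb in WT and 197 in *Phf2* KO. It was at 1285 and 1392 CPM in WT and 1249 and 1138 CPM in *Phf2* KO, which is 89.2% of WT without overlap (log2 fold change -0.17 ± 0.11 SE, unadjusted p = 0.200). *Slit2* was at 556 and 580 CPM in WT and 559 and 565 CPM in *Phf2* KO, which is 99.0% of WT with overlapping groups. Both Robos that were tested were lower in both *Phf2* KO libraries than in both WT libraries. *Robo1* was at 20.6 and 25.4 CPM in WT and 13.1 and 18.0 CPM in *Phf2* KO, with means of 23.0 ± 3.38 and 15.6 ± 3.45 CPM (n = 2 each), 67.7% of WT. Its log2 fold change was -0.56 ± 0.21 SE (unadjusted p = 0.0468) and ranged from -0.81 to -0.35 when each library was left out.

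*Robo2* was at 50.4 and 61.7 CPM in WT and 31.8 and 48.6 CPM in *Phf2* KO, 71.8% of WT. Here the gap between WT replicate 1 and *Phf2* KO replicate 2 was small, and the log2 fold change of -0.48 ± 0.24 SE had an unadjusted p of 0.107. *Robo3* had 0 to 5 counts a library, and *Robo4*, which is known from endothelium, had none in any library. The endothelial markers *Tie1* and *Cldn5* were at 0 in every library and *Pecam1* had 2 to 5 counts. Other endothelial markers were detected, and 5 of the 11 listed passed the filter. Among these, *Flt1* was at 214 and 170 CPM in WT and 270 and 181 CPM in *Phf2* KO. *Vwf* was at 26.8 and 5.86 CPM in WT and 26.8 and 8.40 CPM in *Phf2* KO.

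*Robo1* (chr16:72663394-73046340, plus strand) and *Robo2* (chr16:73892551-74412070, minus strand) are neighbours on chromosome 16, where *Epha3* (chr16:63543364-63863984, minus strand) and *Sema5b* also lie, all in mm9. Of 5 guidance genes tested on this chromosome, 4 had a log2 fold change below 0, the exception being *Ephb3* at 0.11. All 396 genes tested there had a median of -0.005, with 51.0% below 0. On chromosome 5, 4 of 7 guidance genes were below 0, with a median of 0.01 and 47.2% below 0 over 798 genes. These chromosomes were picked after the values were seen.

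Netrins are laminin-related ligands. *Ntn1* (mm9 chr11:68022866-68214325, minus strand) was at 48.9 and 52.4 CPM in WT and 34.8 and 40.0 CPM in *Phf2* KO. Means were 50.6 ± 2.47 and 37.4 ± 3.66 CPM (n = 2 each), which is 73.9% of WT. The log2 fold change was -0.44 ± 0.11 SE (unadjusted p = 0.0140), the ratios within the replicate numbers were -0.49 and -0.39, and the groups did not overlap. An exon of *Ntn1* overlaps another annotated gene on the same strand, and so does one of *Ntn3*, with *Tbc1d24*. *Ntn3* was at 102% of WT, and *Ntn4*, a basement membrane netrin, was at 10.1 and 21.1 CPM in WT and 10.7 and 17.0 CPM in *Phf2* KO, a difference by replicate number rather than genotype. *Ntn5* had 0 to 2 counts a library and was not tested.

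Of the Unc5 receptors, which mediate repulsion from netrins, *Unc5b* was by far the most abundant. It was at 82.8 and 136 CPM in WT and 122 and 144 CPM in *Phf2* KO (122% of WT; log2 fold change 0.28 ± 0.26 SE, unadjusted p = 0.329). *Unc5c* was at 3.82 and 6.59 CPM in WT and 1.93 and 4.99 CPM in *Phf2* KO, with overlapping groups. *Unc5d* had 20 and 13 counts in WT and 6 and 6 in *Phf2* KO. Its groups did not overlap, and its log2 fold change of -1.29 ± 0.50 SE rests on these few counts (unadjusted p = 0.0535). *Unc5a* had 1 to 4 counts a library and was not tested. Of the 3 matches that are no guidance gene, *Unc50* was at 40.2 and 39.5 CPM in WT and 39.4 and 40.3 CPM in *Phf2* KO, *Plxna4os1* had 5 to 7 counts in WT and 9 to 11 in *Phf2* KO, and *Unc5cl* had none.

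Because the replicate numbers differed in sex and in macrophage markers, the genotype ratio was also taken within each number. Of the 60 guidance genes tested, 20 were lower in *Phf2* KO within both numbers (32.8% of 61, against 30.1% of all genes tested), 23 were higher within both (37.7%, against 32.6%), and 17 went opposite ways. A ratio of at least 0.3 log2 within both numbers was found for 11 lower genes (18.0% of 61, against 5.13% of all genes tested) and 4 higher genes (6.56%, against 4.17%). The 11 were *Sema3a*, *Sema3d*, *Sema5b*, *Plxna2*, *Epha3*, *Epha7*, *Robo1*, *Robo2*, *Ntn1*, *Unc5c* and *Unc5d*, and the 4 were *Sema3f*, *Plxnb1*, *Plxnb3* and *Ephb1*, the last from few counts. Several of these depended on 1 library in the fit: with each library left out in turn, the log2 fold change ranged from -0.89 to -0.28 for *Epha7*, from -1.13 to -0.24 for *Epha3*, from -0.82 to -0.21 for *Robo2*, from -0.75 to -0.23 for *Sema5b*, from -1.43 to -0.06 for *Unc5c* and from 0.13 to 0.76 for *Plxnb1*. No gene moved by that much in opposite directions. Across the 61 genes the ratios within the 2 numbers had a Pearson's r of 0.687 and a Spearman's rank correlation of 0.679, against an r of 0.391 across all genes, as a description of genes that share libraries and are not independent replicates.

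**Figure D3:**
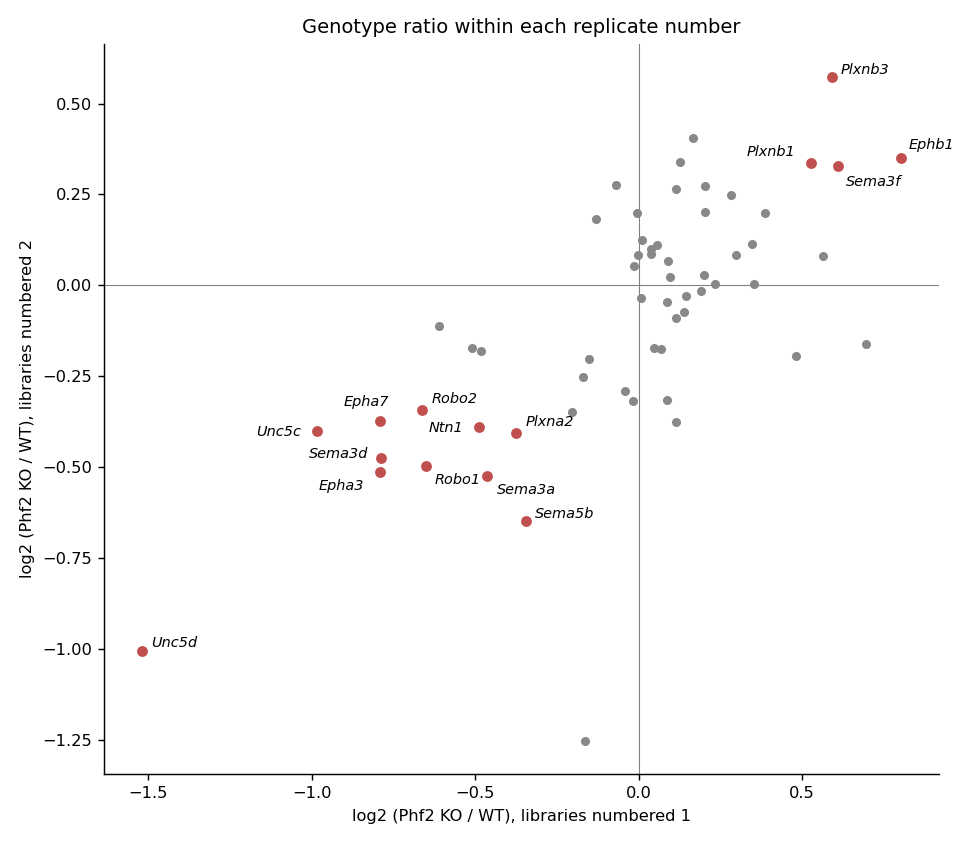
Log2 ratio of *Phf2* KO to WT for each guidance gene, between the libraries numbered 1 (x axis) and between those numbered 2 (y axis). Named red points moved by at least 0.3 log2 in the same direction within both numbers, 11 down and 4 up. *Unc5d*, at the lower left, has 6 to 20 counts a library.

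Levels of ligand and receptor differed more between genes than between genotypes. Per kb of exon, the highest gene of each family in WT was *Slit3* at 221, *Plxnb2* at 123, *Sema3f* at 95.9, *Ephb3* at 36.0, *Nrp1* at 30.6, *Unc5b* at 18.7, *Efnb1* at 13.3, *Epha4* at 12.3, *Efna4* at 10.7, *Ntn1* at 8.07, *Sema4c* at 7.21 and *Robo2* at 3.39 CPM per kb. The same 12 genes were highest in the mean of all 4 libraries. In *Phf2* KO the corresponding levels of *Slit3*, *Plxnb2* and *Sema3f* were 197, 141 and 131 CPM per kb. *Efnb2*, at 13.7 CPM per kb in *Phf2* KO, was close to *Efnb1* at 13.9. The receptors of Slits were thus detected at a low level beside their ligands, with *Robo1* at 2.41 CPM per kb in WT and 1.63 in *Phf2* KO.

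**Figure D4:**
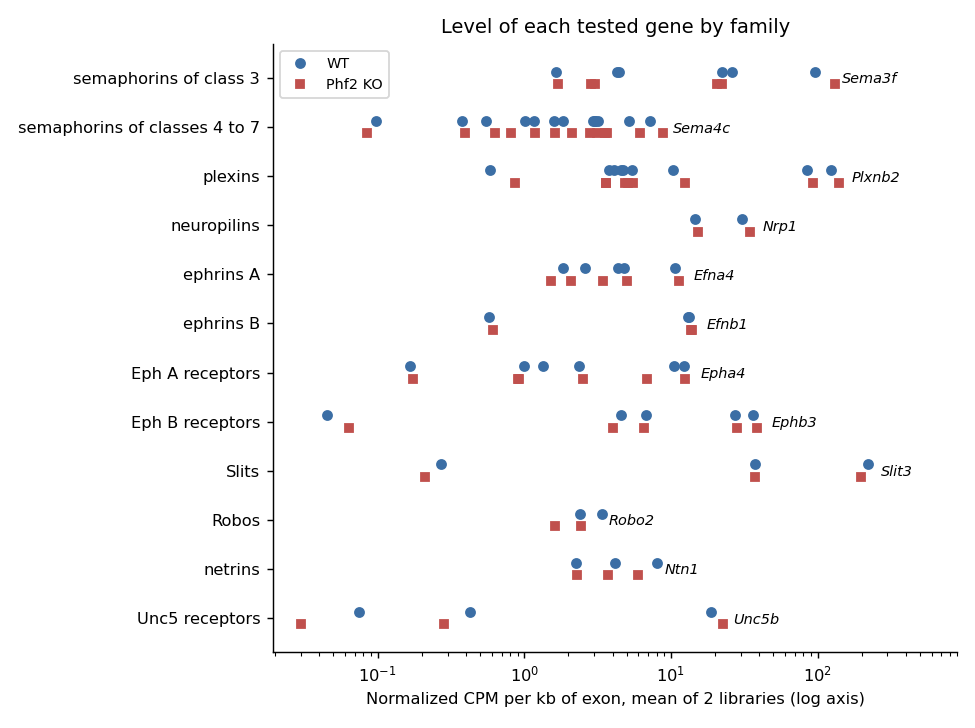
Mean TMM-normalized CPM per kb of exon (log axis) for each guidance gene tested, by family, in WT (blue circles) and *Phf2* KO (red squares). The gene with the highest level of each family is named. *Slit3*, *Plxnb2* and *Sema3f* lie near or above 100 and the Robos below 5 CPM per kb.

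Some guidance genes differed by replicate number instead. A level at least 1 log2 higher in replicate 1 than in replicate 2 of both groups was found for 5 of 61 (8.20%, against 3.97% of all genes tested), and the reverse for 0 of 61 (against 0.754%). *Plxnc1*, a receptor for *Sema7a*, was at 43.3 and 9.59 CPM in WT and at 39.6 and 10.9 CPM in *Phf2* KO. *Sema4d*, which is known from lymphocytes and myeloid cells, was at 30.6 and 8.55 CPM in WT and 30.5 and 9.81 CPM in *Phf2* KO. In both genes the replicates differed by more than 1.6 log2 and the genotypes by less than 0.2 log2 within a number. *Sema6b* was at 3.48 and 0.847 CPM in WT and 3.91 and 1.12 CPM in *Phf2* KO, *Slit1* had 60 and 18 counts in WT and 46 and 7 in *Phf2* KO, and *Sema4a* had 17 and 9 counts in WT against 13 and 7 in *Phf2* KO.

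The macrophage markers were at least 1 log2 higher in replicate 1 of both groups in 15 of 15 genes, with ratios from 1.82 to 2.83 log2 in WT and from 1.49 to 2.20 in *Phf2* KO. The ratios of *Plxnc1*, *Sema4d* and *Sema6b* lay within these ranges in both groups. *Sema4a*, at 1.02 in WT and 1.11 in *Phf2* KO, lay below them, and *Slit1*, at 1.84 in WT and 2.93 in *Phf2* KO, lay above the range in *Phf2* KO. The part of macrophage RNA in these values was not tested. The groups of all 5 overlapped, but genes picked for this gap can separate only where the genotypes differ by more than the gap. The overlap therefore does not show whether the genotypes differed in these genes. Other marker lists were lower. Neuronal markers summed to 47.3 and 62.4 CPM in WT and 56.7 and 66.7 CPM in *Phf2* KO over 11 genes, glial markers to 68.8 and 52.9 CPM and 77.0 and 63.0 CPM over 7 genes, epithelial markers to between 0.482 and 0.998 CPM over 6 genes, and endothelial markers to 248 and 183 CPM and 302 and 197 CPM over 11 genes, with *Flt1* most of the latter. Their part in the values of guidance genes was not tested.

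**Figure D5:**
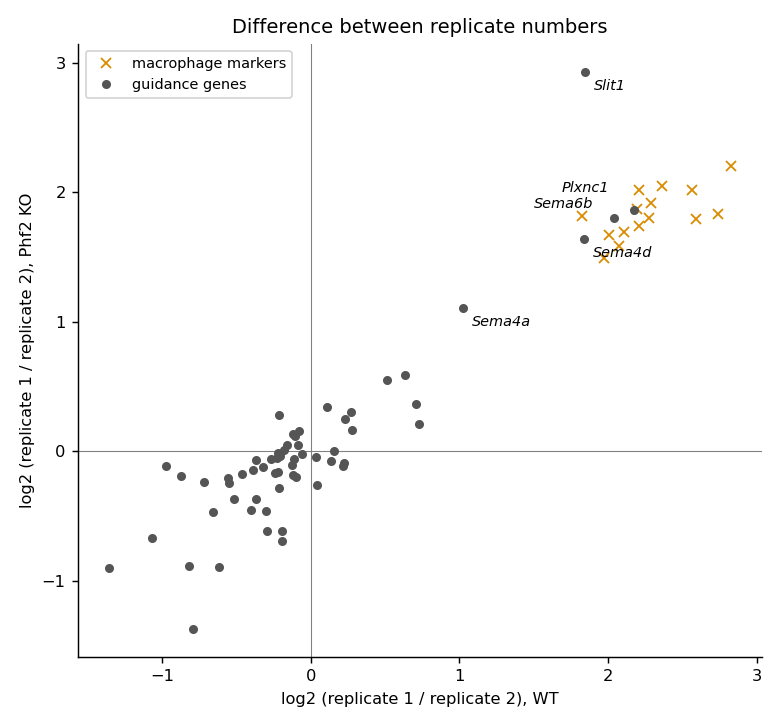
Log2 ratio of replicate 1 to replicate 2 in WT (x axis) and *Phf2* KO (y axis) for guidance genes (grey) and macrophage markers (orange crosses). *Plxnc1*, *Sema4d*, *Sema6b*, *Slit1* and *Sema4a* were at least 1 log2 higher in replicate 1 of both groups.

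Genes that work with these ligands and receptors were read from the same fit. Of 33 co-receptors and other cues, 31 were tested. By the quasi-likelihood test none passed an adjusted p of 0.1. That test called 0.00732% of all genes tested (1 gene) and gave *Phf2* itself an adjusted p of 0.999. Adjusted p-values of the other tests are not given for these lists. At an unadjusted p under 0.05, 0 were higher (against 1.54% of all genes tested) and 3 lower (9.68%, against 2.67%). The 3 were *Slitrk1*, *Dscam* and *Flrt2*. *Slitrk1*, a synaptic adhesion gene with Slit-like leucine-rich repeats, had 56 and 65 counts in WT and 6 and 5 in *Phf2* KO (10.3% of WT; log2 fold change -3.26 ± 0.34 SE, unadjusted p = 0.000346). *Dscam*, a netrin receptor, had 15 and 11 counts in WT and 1 and 1 in *Phf2* KO. Its log2 fold change of -3.40 ± 0.68 SE rests on these few counts (unadjusted p = 0.00535). *Flrt2*, a ligand of Unc5 receptors, was at 62.6 and 48.8 CPM in WT and 39.1 and 39.0 CPM in *Phf2* KO (70.1% of WT; log2 fold change -0.51 ± 0.15 SE, unadjusted p = 0.0200). Of 64 intracellular effectors, 60 were tested and 0 passed an adjusted p of 0.1 (against 0.00732%) by the same test. At an unadjusted p under 0.05, 0 were higher (against 1.54%) and 1 lower (1.67%, against 2.67%). That was *Srgap1*, a GTPase activating protein that binds Robo, with 1169 and 1195 counts in WT and 829 and 946 in *Phf2* KO (log2 fold change -0.25 ± 0.09 SE, unadjusted p = 0.0410). Over both lists the 4 lower genes became 2 to 6 with each library left out in turn. The median log2 fold change was 0.04 over the co-receptors and cues and 0.03 over the effectors.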

How the data were processed

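RNA-seq of 2 WT and 2 *Phf2* KO libraries was analysed. Reads were trimmed by the authors (Trim Galore) and cleared of ribosomal RNA (bowtie2), then mapped to mm9 by STAR in reverse-stranded mode. The deposited values are raw featureCounts counts per gene. Tool versions were not given in the sources used here. A second deposited table holds the authors' own comparison (log2 fold changes, standard errors and p-values) and was not used.

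The genotype comparison used edgeR 4.0.16 under R 4.3.3: filterByExpr, TMM, glmQLFit and glmQLFTest with genotype as the only term, and Benjamini-Hochberg adjustment over 13668 genes at 0.1. Unadjusted p-values come from the same fit. DESeq2 1.42.0 and limma 3.58.1 were alternatives. Each test was tried on simulated data with 200 changed genes. Positions and exon lengths came from GENCODE on NCBIM37 (mm9), which placed 70 of the 71 genes, and promoters from RefSeq (GRCm38.p6). Shares were computed in pandas 2.3.3 and NumPy 2.4.6 and drawn with Matplotlib 3.10.9, under Python 3.11.15.

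Guidance genes, other lists and tests were chosen with earlier results of these data known, and limits of 0.3 and 1 log2 for ratios within or between replicate numbers after seeing the values. Genes named are *Phf2*, those with an unadjusted p under 0.05, those without overlap at 0.5 log2 or more, those called by DESeq2 or with a replicate block, the most abundant per kb of each family, those not tested, and others in a family where their values complete the account. With 2 libraries a group, an exact permutation test could not pass 0.05 and none was run. Floors of 3 counts cover counting error only.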

Additional observations from a re-analysis of the deposited data

How the results depend on the processing

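With the replicate number as a block, 7 guidance genes were higher in *Phf2* KO (*Plxnb1*, *Plxnb3*, *Plxnd1*, *Sema3f*, *Sema4c*, *Sema5a*, *Unc5b*) and 11 lower (*Epha3*, *Epha7*, *Ntn1*, *Plxna2*, *Robo1*, *Robo2*, *Sema3a*, *Sema3c*, *Sema3d*, *Sema5b*, *Unc5c*) at adjusted p under 0.1, against 5.77% and 5.2% of all genes. At unadjusted p under 0.05 the block gave 10 higher and 13 lower of 61, and 8 and 15 of the other pathway genes, against 10.4% and 9.16% of all genes. The block left 1 residual degree of freedom and a common dispersion of 0.00363, against 0.0451 without it. The labels do not state that a number marks an embryo or culture, so the fit without it is given first. Libraries of 1 number were, however, of the same sex, and replicate 1 over 2 in WT and in *Phf2* KO had an r of 0.746 across genes. Chi-square per degree of freedom between the counts of 2 libraries is lower where they are more alike. It was 18.8 and 14.6 between libraries of the same number, and 35.1 to 55.1 between libraries of different numbers. Macrophage markers were higher in number 1 of both groups, but within number 2 they summed to 917 CPM in WT and 1438 CPM in *Phf2* KO. At unadjusted p under 0.05, DESeq2 gave 1 higher, the likelihood ratio test 0, and limma-voom 1 higher pathway gene (the cause was not tested). Leaving out each library gave 0 to 6 higher and 2 to 8 lower guidance genes, and 0 to 1 and 2 to 6 pathway genes, where 2 were lower without WT replicate 1 or either *Phf2* KO replicate. The median over guidance genes ranged from -0.0441 to 0.0184, below 0 without WT replicate 1 or *Phf2* KO replicate 1. It crossed 0 for plexins (-0.0325 to 0.21), neuropilins (-0.0724 to 0.35), ephrins B (-0.0255 to 0.16), Eph B receptors (-0.0441 to 0.16) and netrins (-0.54 to 0.13), and so did *Plxnd1* (-0.0325 to 0.56), *Unc5b* (-0.0193 to 0.67), *Efna4* (-0.0605 to 0.23), *Efnb1* (-0.0255 to 0.16) and *Epha4* (-0.0071 to 0.0472). With all genes of at least 1 count the Eph A median was 0.0419, since other genes were tested. For the same reason, with at least 1 CPM in 2 libraries the Eph B median was -0.0059 and the Unc5 median was -0.15. Other settings (normalization, filters, thresholds of 0.05 and 0.01) called no guidance gene and turned none of the named genes. The 10 genes not tested had at most 11 counts in a library.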
